A study of Mus musculus with 49 samples.

Results

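The tumours described here are the 16 of 49 sequenced CT26 tumours that received anti-PD-1 plus celecoxib, chosen by their treatment label and divided by their response label into 12 R tumours and 4 NR tumours. CT26 is a mouse colon carcinoma line, grown here in Balb/c mice. All 16 tumours had both agents: celecoxib, an inhibitor of the enzyme COX-2, at 30 mg/kg daily, and 2 doses of 200 µg of an antibody against PD-1. Dosing began on day 7 after injection of the tumour cells and ran for 7 days. The tissue label places collection on day 7 of treatment and the extraction protocol on day 4, which the sources used here do not settle. The labels do not define R and NR, and they leave unstated whether every tumour had its own host mouse. The p-values speak of the spread among tumours, which may be partly technical. The other tumours served as context: 4 R and 13 NR tumours given anti-PD-1 alone, 7 given celecoxib alone and 9 given vehicle, a mixture of DMSO, PEG400 and water. All celecoxib and all vehicle tumours are labelled NR.

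PD-1 is an inhibitory receptor on activated T cells, and blocking it releases cytotoxic T cells that kill with perforin and granzymes and secrete interferon-gamma. Interferon-gamma acts on many cell types and induces antigen presentation genes, the chemokines CXCL9 and CXCL10, and PD-L1. COX-2, encoded by Ptgs2, makes the precursor of prostaglandin E2, which signals through cyclic AMP in immune cells and accompanies an inflammation of neutrophil-attracting chemokines and interleukin-1 in many tumours.

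The 16 libraries were of like depth, at 5315321 to 8325352 counts (mean 7089430 ± 1045020 SD) in R tumours and 6448635 to 9789479 (mean 7650680 ± 1520420 SD) in NR tumours (two-sided exact permutation p = 0.418). Keratin genes Krt8 and Krt18 were low, with median levels in R tumours of 2.67 and 8.32 CPM (counts per 1000000, scaled between libraries), and the epithelial adhesion gene Epcam had a median of 0 CPM in R tumours and a highest value of 0.655 CPM in NR tumours, so that classical epithelial markers of a carcinoma were low or absent. Skeletal muscle transcripts divided the libraries. The summed level of 18 muscle genes ran from 15.17 to 2961 CPM in R tumours (median 81.15) and from 13.44 to 201.9 CPM in NR tumours (median 15.67). None of these 18 genes was at 0 in all tumours of either group. The summed level of 7 adipocyte genes ran from 109.9 to 647.7 CPM in R tumours and from 99.57 to 149.9 CPM in NR tumours. R replicates 4, 9, 10 and 11 passed the limit for muscle (a mean above 3 log2 CPM over the list), as did 0 NR tumours. Key values are therefore also given without the libraries past that limit or a like one for skin and adipocyte genes, in all treatments. In bulk tissue, fewer cells of a type and less RNA per cell cannot be told apart.

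Among 14247 tested genes 0 passed an adjusted p of 0.05 (0%) between R and NR combination tumours in edgeR's quasi-likelihood test. At an unadjusted p under 0.05 there were 1298 genes (9.11%), 752 higher in R (5.28% of all genes) and 546 lower (3.83%), and limma-voom likewise called 0 genes. DESeq2 called 17, of which 15 were higher in R: Nos2, Cxcl1, Il1rn, Clec4e, Mmp19, Sdcbp2, Acsl1, Fst and Abcg1, with the muscle genes Art1 and Ckmt2, the hair keratin gene Krt33b, the keratin-associated protein genes Krtap11-1 and Krtap19-9b, and Gm10229. For these last 6 DESeq2 fitted log2 differences of 20.2 to 21.3, which give no fold because all 4 NR tumours were at 0 counts. Rapgef3 and 1700031A10Rik were lower in R by DESeq2. In what follows, differences are log2 (R minus NR) from edgeR with their standard error (SE), none of them past the adjusted limit, so they are given as values and not as changes.

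The 6 genes with the smallest p on the higher side were Sdcbp2, Mmp19, Nos2, Cxcl1, Il1rn and Esrra, of which Nos2, Cxcl1 and Il1rn act in inflammation. Nos2 (chromosome 11, 78920787 to 78960254), the inducible nitric oxide synthase of activated macrophages, lay at 0.538, 4.49 and 90.1 CPM (lowest, median and highest) in R tumours, against 0.653, 0.328, 1.04 and 0.515 CPM in the 4 NR tumours. Only R replicates 7 and 8, at 0.538 and 0.85 CPM, fell within the NR range, and replicates 9 and 10 were far above the rest at 90.1 and 34.4 CPM. The log2 difference was 4.38 (SE 1.07, edgeR adjusted p = 0.329), 3.33 without R replicate 9 and 2.44 (SE 0.75) without the libraries holding other tissue. DESeq2 gave 4.42 (adjusted p = 0.000374).

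Cxcl1 (chromosome 5, 90891241 to 90893115), a neutrophil-attracting chemokine, lay at 7.18, 15.0 and 67.5 CPM (lowest, median and highest) in R tumours, against 4.96, 4.75, 7.86 and 7.32 CPM in NR tumours. Of the 12 R tumours 11 exceeded every NR tumour, replicate 7 being the exception, and replicates 9 and 10 again led at 66.9 and 67.5 CPM. The difference was 1.95 (SE 0.49) and 1.31 (SE 0.39) without the libraries with other tissue. Its neighbour Cxcl2, which binds the same receptor, lay at 1.30, 3.30 and 26.6 CPM in R tumours, against 1.17, 0.164, 0.890 and 2.68 CPM in NR tumours, a difference of 2.202 (SE 0.78). The groups overlapped for Cxcl2, with NR replicate 4 inside the R range and R replicates 9 and 10 highest at 14.2 and 26.6 CPM. Without the libraries with other tissue the difference was 1.14 (SE 0.72).

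The promoters of Cxcl1 and Cxcl2 are printed because these neighbouring genes were highest in the same R tumours and both hold a match to the consensus of NF-kB, the transcription factor of inflammatory signalling. Each sequence is the 250 bases before the transcription start in RefSeq on GRCm38.p6, plus strand, chr5:90890995-90891244 for Cxcl1 and chr5:90903649-90903898 for Cxcl2. Capitals mark GGGAATTTCCC, in which a match on the plus strand and one on the minus strand overlap, 71 to 61 bases before the start of Cxcl1 and 97 to 87 bases before that of Cxcl2.
Cxcl1: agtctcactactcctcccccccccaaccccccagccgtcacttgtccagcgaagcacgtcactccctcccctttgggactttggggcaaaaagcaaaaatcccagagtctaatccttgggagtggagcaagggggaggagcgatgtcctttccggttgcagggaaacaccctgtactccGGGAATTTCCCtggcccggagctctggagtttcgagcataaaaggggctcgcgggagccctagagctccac
Cxcl2: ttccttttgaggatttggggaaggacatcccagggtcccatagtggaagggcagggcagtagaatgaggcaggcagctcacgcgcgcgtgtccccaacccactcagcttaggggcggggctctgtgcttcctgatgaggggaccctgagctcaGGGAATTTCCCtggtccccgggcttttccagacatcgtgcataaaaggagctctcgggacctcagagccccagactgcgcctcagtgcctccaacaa
The NF-kB consensus was searched on both strands and occurs in 1894 of 27025 mouse promoters of this length (7.01%). A match is a description of letters, and binding was not measured. The promoter window of Ptgs2 held no match, which says only that those letters are not in that window.

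Il1rn, encoding the secreted antagonist of the interleukin-1 receptor, lay at 8.90, 20.96 and 76.7 CPM in R tumours, against 9.53, 8.69, 8.90 and 13.3 CPM in NR tumours, a difference of 1.36 (SE 0.36) that was 0.90 without the libraries with other tissue. R replicates 5 and 7 were within the NR range. Mmp19, a matrix metalloprotease, lay at 16.4, 27.97 and 43.0 CPM in R tumours, against 13.6, 11.1, 9.79 and 18.7 CPM in NR tumours, with R replicates 3, 4 and 5 within the NR range. The difference was 1.04 (SE 0.25), and 0.89 (SE 0.23) without the libraries with other tissue. Sdcbp2, which encodes the membrane adaptor syntenin-2, was the one gene of this group with no overlap. It lay at 3.23, 5.10 and 15.7 CPM in R tumours, against 2.87, 1.803, 1.63 and 2.06 CPM in NR tumours, a difference of 1.52 (SE 0.36) that held its size without the libraries with other tissue (1.58, SE 0.40). Esrra, a nuclear receptor of oxidative metabolism, completed the 6 at 0.74 (SE 0.19). Their edgeR adjusted p ran from 0.329 to 0.363.

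**Figure D1:**
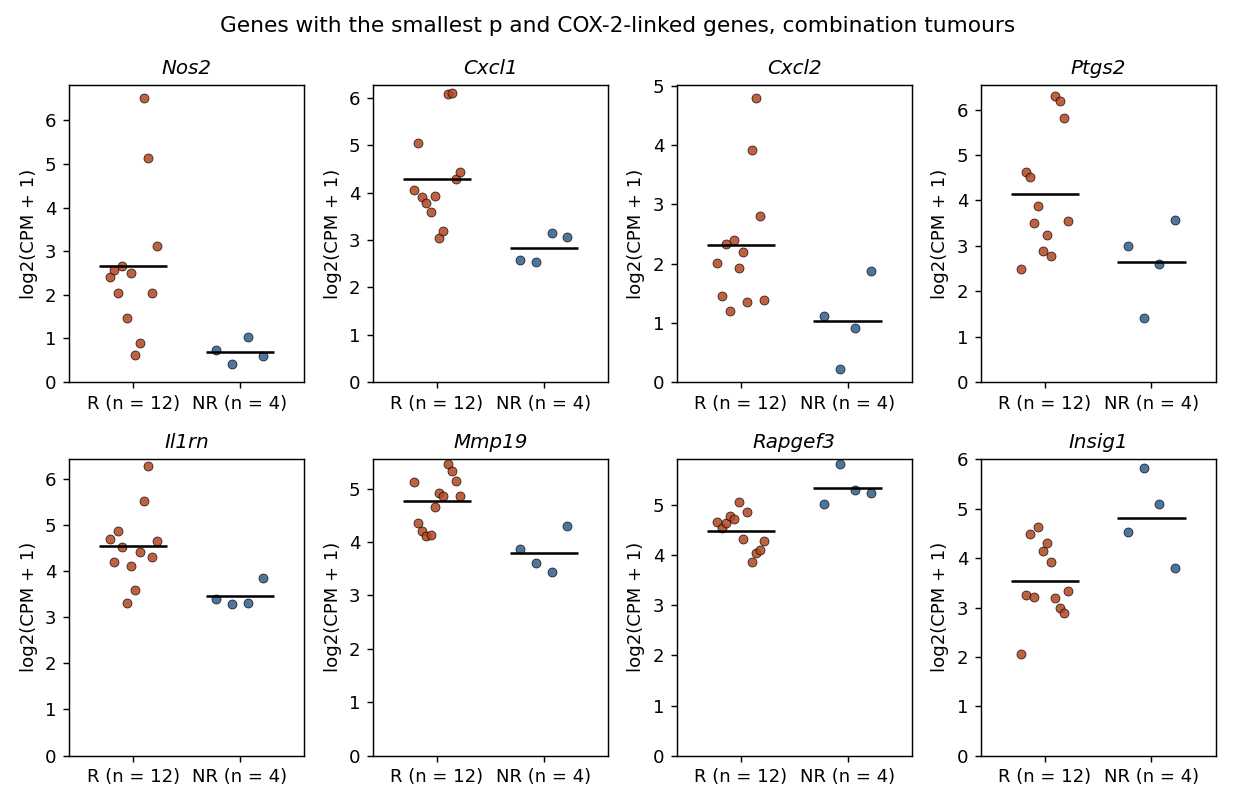
Level of 8 genes in each combination tumour, as log2(CPM + 1), with R (n = 12) left of NR (n = 4). Points are tumours and bars are group means. R replicates 9 and 10 are the highest points for Nos2, Cxcl1, Cxcl2 and Ptgs2, while Rapgef3 and Insig1 have a lower mean in R.

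Tumour-promoting inflammation genes all had a positive difference, 13 of 13 tested members of an 18-gene list (53.9% of all genes were positive). Their median log2 difference was 0.94, against 0.03 over all genes, and 5 reached an unadjusted p under 0.05: Cxcl1, Cxcl2, Ptgs2, the cytokine Tnf at 1.59 (SE 0.64) and the interleukin-6 family cytokine Lif at 1.99 (SE 0.83). Il1b, the main secreted interleukin-1, differed by 0.61 (SE 0.45), and by 1.16 without NR replicate 4. Arg1, whose enzyme breaks down arginine, differed by 1.06 (SE 0.55), and by 0.47 without the libraries with other tissue. The list mean exceeded every NR tumour in 10 of 12 R tumours. NF-kB targets were positive in 15 of 16 members (median 0.59), 8 of them at an unadjusted p under 0.05, among them the mitochondrial superoxide dismutase Sod2 at 0.75 (SE 0.24), the feedback inhibitor Tnfaip3 at 1.46 (SE 0.51) and the adhesion molecule Icam1 at 1.16 (SE 0.50). The Tnfaip3 difference was 0.90 without R replicate 9 and 0.85 without the libraries with other tissue.

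Ptgs2 itself, the target of celecoxib, had a higher mean in R tumours. Ptgs2 (chromosome 1, 150100031 to 150108227) lay at 4.60, 12.2 and 77.7 CPM in R tumours, against 6.92, 1.64, 5.05 and 10.8 CPM in NR tumours. R replicates 9, 10 and 11, at 77.7, 72.0 and 55.5 CPM, stood above all others, and 6 of 12 R tumours lay within the NR range. The difference was 2.06 (SE 0.74, edgeR adjusted p = 0.432), and 0.95 (SE 0.66) without the libraries with other tissue, which include all 3 of those tumours. Their summed muscle gene levels were 844.6, 2351 and 2961 CPM. Ptger2, a cyclic AMP-coupled prostaglandin E2 receptor, differed by 2.16 (SE 0.70) and Ptgs1, the constitutive cyclooxygenase, by -0.49 (SE 0.22). These were the 3 of 16 prostaglandin pathway genes at an unadjusted p under 0.05. The E2 synthase Ptges was level, at 82.3 ± 27.8 CPM in R tumours and 82.5 ± 8.90 CPM in NR tumours (SD, n = 12 and 4), and the list median was 0.10.

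Lymphocyte genes had higher means in R tumours, with wide overlap. All 15 tested cytotoxic lymphocyte genes were positive (median 1.48), with 5 at an unadjusted p under 0.05. All 20 T cell genes were positive too (median 1.30, 5 at that p, among them Cd247, Cd28 and Icos). Gzmb, the granzyme that triggers death of target cells, lay at 1.57, 36.1 and 215 CPM in R tumours, against 10.7, 13.3, 7.27 and 13.4 CPM in NR tumours. Of the 12 R tumours 10 exceeded every NR tumour, and replicates 7 and 11 did not. The difference was 2.21 (SE 0.79), and 1.76 (SE 0.69) without the libraries with other tissue. Prf1, encoding perforin, lay at 0.143, 7.03 and 14.3 CPM in R tumours, against 0.653, 2.95, 0 and 3.61 CPM in NR tumours, a difference of 1.94 (SE 0.94). Fasl, the death ligand of T cells, differed by 1.82 (SE 0.86) and Gzmk by 1.93 (SE 0.86).

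Cd8a, which marks cytotoxic T cells, showed how unequal the tumours were within each label. It lay at 0.715, 18.6 and 83.7 CPM in R tumours, against 1.31, 10.3, 0 and 16.9 CPM in NR tumours, a difference of 1.81 (SE 1.15) short of an unadjusted p of 0.05. NR replicate 4 exceeded 5 of 12 R tumours for Cd8a, while R replicates 7 and 11, at 1.44 and 0.715 CPM, were among the lowest of all 16. Without NR replicate 4 the Cd8a difference was 2.74. Cd4 differed by 0.89 (SE 0.61). Foxp3, which defines regulatory T cells, was at 3.05 ± 2.43 CPM in R tumours and 2.90 ± 0.863 CPM in NR tumours (SD, n = 12 and 4). The co-stimulatory receptor Cd28 lay at 1.0004, 13.6 and 27.4 CPM in R tumours, against 4.70, 3.28, 3.56 and 6.29 CPM in NR tumours, a difference of 1.57 (SE 0.60).

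Inhibitory receptors of T cells also had higher means in R tumours. All 8 tested members were positive (median 1.18), with Btla at 1.59 (SE 0.56) and Ctla4 at 1.33 (SE 0.60) the 2 at an unadjusted p under 0.05. Pdcd1, which encodes PD-1, lay at 0, 12.4 and 72.96 CPM in R tumours, against 1.17, 3.28, 0.148 and 11.1 CPM in NR tumours, a difference of 2.11 (SE 1.12), and of 3.54 without NR replicate 4. Its lowest value belonged to R replicate 7 and its highest to R replicate 1. Across the T cell list R replicate 11 had the lowest mean of all 16 tumours (0.13 log2 CPM) and R replicate 1 the highest (5.12), and the NR tumours ran from 1.62 to 3.08. Without NR replicate 3, the NR tumour with the lowest T cell mean, the difference in list means was 0.68 for T cells (0.95 with all tumours), 0.66 for cytotoxic lymphocytes (1.04), 0.59 for inhibitory receptors (0.96) and 0.26 for natural killer cells (0.64).

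**Figure D2:**
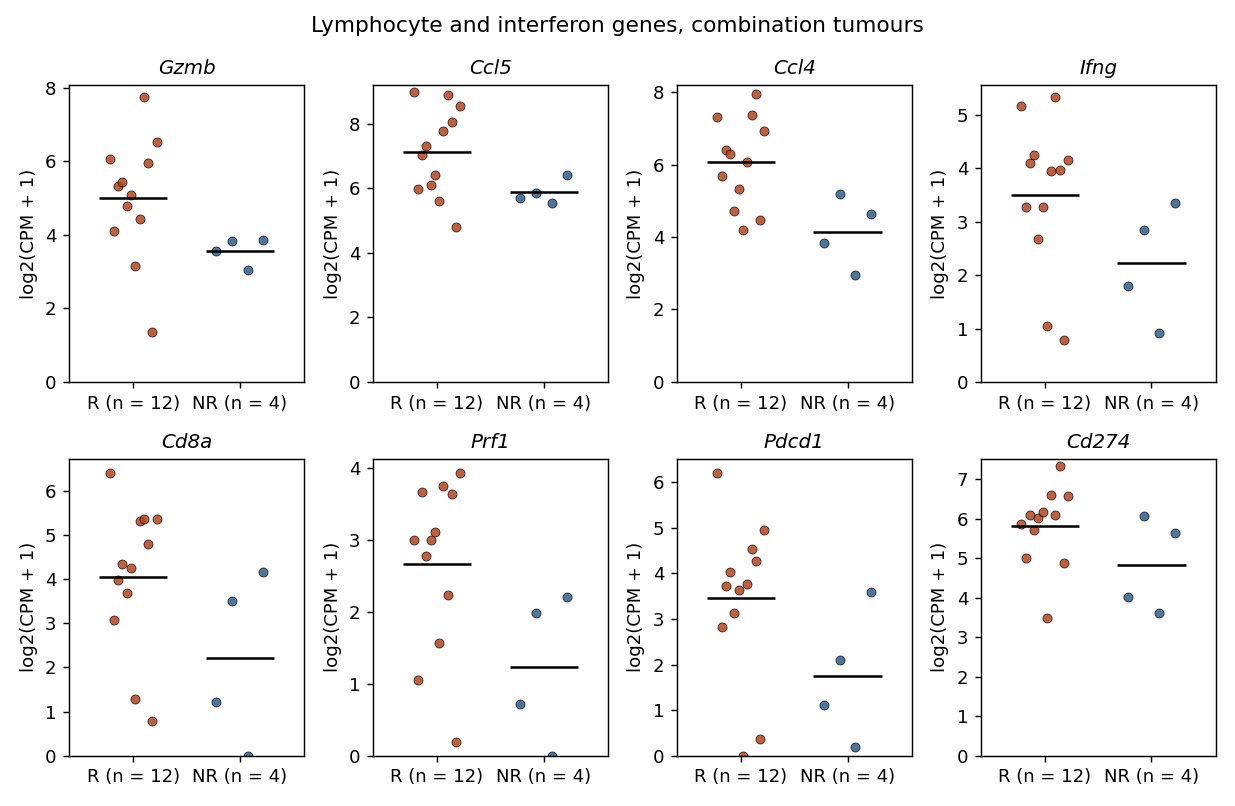
Level of 8 lymphocyte and interferon genes in each combination tumour, as log2(CPM + 1), with R (n = 12) left of NR (n = 4). Points are tumours and bars are group means. Means are higher in R for all 8, and 1 or more R tumours lie at or below the highest NR tumour in each panel.

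Chemokines that draw T cells were positive in 8 of 8 tested members (median 1.07). Ccl4, which attracts T cells and monocytes, lay at 17.4, 72.2 and 246 CPM in R tumours, against 13.3, 35.2, 6.68 and 24.01 CPM in NR tumours, a difference of 2.17 (SE 0.69, edgeR adjusted p = 0.409). R replicates 5, 7 and 11 were within the NR range. Ccl5, made by cytotoxic cells, lay at 26.9, 144 and 511 CPM in R tumours, against 51.6, 56.5, 45.7 and 84.1 CPM in NR tumours, a difference of 1.76 (SE 0.74). Ccl3 differed by 1.92 (SE 0.87). Co-stimulation and TNF family genes were positive in 8 of 8 members (median 1.16), 5 at an unadjusted p under 0.05, with Cd80 at 0.98 (SE 0.40) and Cd86 at 1.08 (SE 0.47), the ligands of Cd28 on antigen-presenting cells. The Cd80 difference was 0.53 without R replicate 10 and 0.41 without the libraries with other tissue.

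Interferon-gamma response genes were positive in 30 of 30 tested members (median 0.95). Ifng, the cytokine gene, lay at 0.715, 14.6 and 39.4 CPM in R tumours, against 2.48, 6.23, 0.890 and 9.17 CPM in NR tumours, a difference of 1.66 (SE 0.98). With the T cell list mean as a covariate the Ifng difference was 0.06 and that of Gzmb 0.73. Of the 30 response genes 5 reached an unadjusted p under 0.05, namely Nos2, Ciita, Serpina3f, Irgm1 and Gbp2. Ciita, the master activator of MHC class II genes, differed by 1.61 (SE 0.71). Cd274, encoding PD-L1, was at 66.7 ± 38.8 CPM in R tumours and 35.3 ± 26.6 CPM in NR tumours, a difference of 0.92 (SE 0.57), and of 1.39 without NR replicate 2. On the list mean 10 of 12 R tumours exceeded every NR tumour and 1, replicate 7, lay below every one (4.35 log2 CPM, with NR tumours from 4.46 to 6.28).

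MHC class II genes were positive in 10 of 10 members (median 1.08, 3 at an unadjusted p under 0.05), with H2-Ab1 at 1.31 (SE 0.64). MHC class I antigen presentation genes were positive in 16 of 16 members but by less (median 0.43, 0 at that p), with B2m, the shared light chain, at 0.45 (SE 0.24). Type I interferon response genes were positive in 26 of 27 members (median 0.26, 0 at that p). The class I and type I interferon differences in list means, 0.47 and 0.21, were 0.24 without NR replicate 3 and 0.05 without NR replicate 1.

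**Figure D3:**
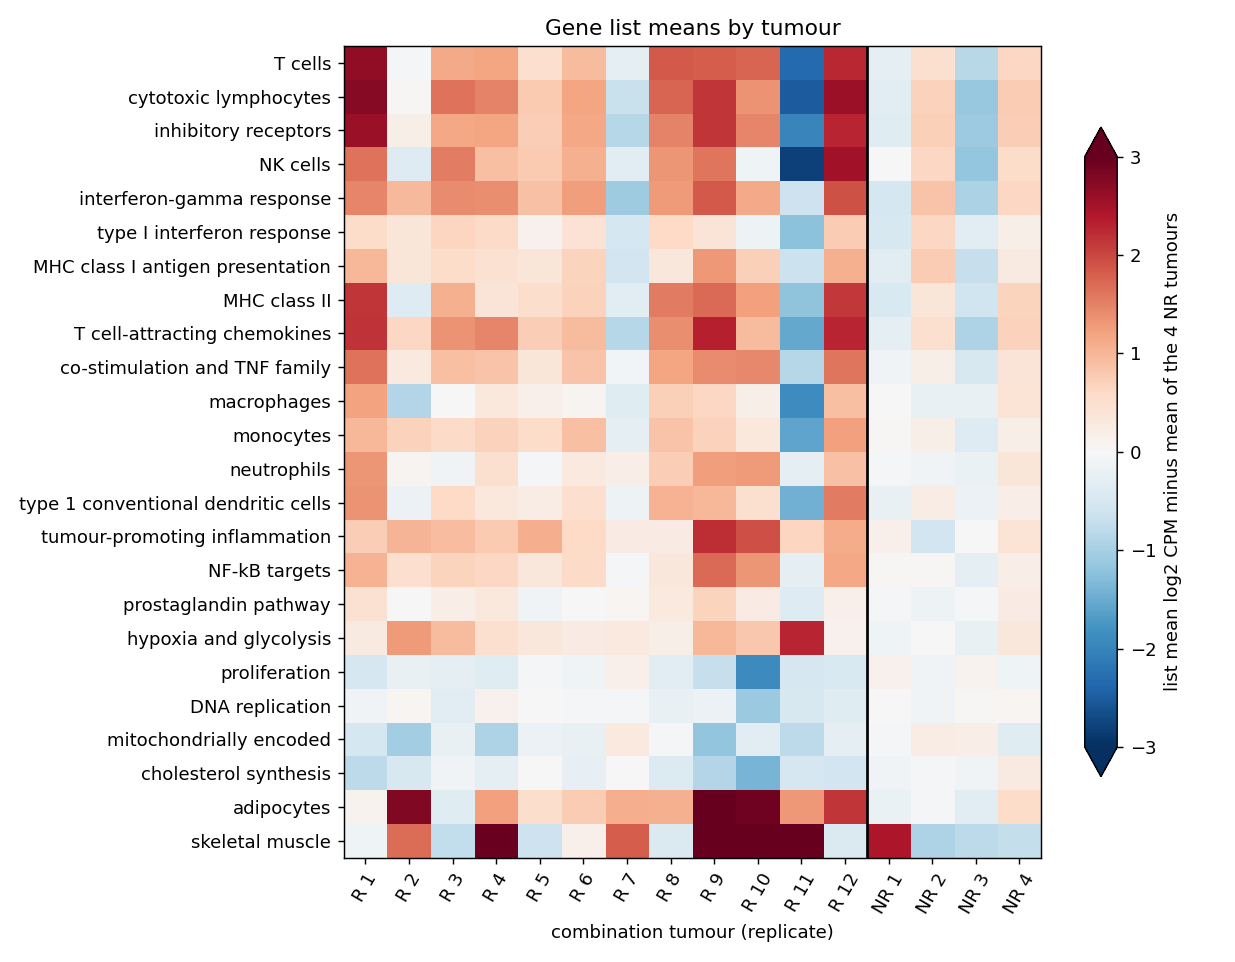
Mean log2 CPM of 24 gene lists in each of the 16 combination tumours, minus the mean of the 4 NR tumours, with R replicates 1 to 12 left of NR replicates 1 to 4. Colours saturate at 3 log2 units. R replicates 1, 9 and 12 are high and R replicates 7 and 11 low across the lymphocyte lists, and muscle and adipocyte genes are high in R replicates 9 and 10.

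Myeloid lists differed less evenly. Monocyte genes were positive in 6 of 6 members (median 0.77) and macrophage genes in 10 of 14 (median 0.31), among which the apoptotic cell receptor Mertk was at 1.18 (SE 0.42) and Csf1r at -0.08. The difference in macrophage list means was 0.09 with all tumours and -0.01 without R replicate 1, and that of Csf1r was 0.09 without NR replicate 4. Of 14 neutrophil genes 8 were tested and 6 were positive, among them Clec4d at 1.596 (SE 0.52), Csf3r, the receptor for granulocyte colony-stimulating factor, at 1.65 (SE 0.68), and S100a8 at 1.24 (SE 0.53), a gene whose level was low at 2.47 ± 1.52 CPM in R tumours and 0.9997 ± 1.05 CPM in NR tumours. Clec4d was at 0.85 without the libraries with other tissue and S100a8 at 2.22 without NR replicate 4. Mmp9, a gelatinase stored in neutrophil granules, went the other way. It lay at 3.43, 11.99 and 29.8 CPM in R tumours, against 27.3, 23.9, 40.5 and 17.2 CPM in NR tumours, a difference of -1.11 (SE 0.31, edgeR adjusted p = 0.382). Of the 12 R tumours 10 lay below every NR tumour, replicate 7 held the highest R value and replicate 1 lay at the lowest NR value.

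Genes of hypoxia and glycolysis were positive in 21 of 22 members (median 0.91), 8 of them at an unadjusted p under 0.05. Pfkp, a glycolytic phosphofructokinase, lay at 58.0, 107 and 149 CPM in R tumours, against 49.6, 62.3, 46.7 and 67.9 CPM in NR tumours, a difference of 0.90 (SE 0.25). Only R replicates 5 and 7 fell within the NR range. Slc16a3, a lactate exporter, lay at 30.8, 53.96 and 149 CPM in R tumours, against 32.6, 23.9, 23.3 and 35.4 CPM in NR tumours, a difference of 1.18 (SE 0.46), and only R replicate 9 lay within the NR range. R replicate 11 was the highest for this list (7.52 log2 CPM, with NR tumours from 5.01 to 5.58), and it was also the tumour with the lowest T cell mean. The difference in list means was 0.69 with all tumours, 0.54 without R replicate 11 and 0.46 without the libraries with other tissue. The metallothionein Mt2, induced by metals and glucocorticoids, differed by 1.12 (SE 0.40).

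On the lower side the smallest p among named genes belonged to Rapgef3. Rapgef3 (chromosome 15, 97744770 to 97767972) encodes EPAC1, which activates the GTPase Rap when it binds cyclic AMP. It lay at 13.6, 23.2 and 32.2 CPM in R tumours, against 31.6, 55.9, 38.3 and 36.8 CPM in NR tumours, so that only R replicate 6 reached the lowest NR tumour. The difference was -0.87 (SE 0.18, edgeR adjusted p = 0.104), and -0.73 (SE 0.18) without the libraries with other tissue. Spag5, a mitotic spindle protein, did not overlap at all. It lay at 15.0, 39.7 and 48.99 CPM in R tumours, against 55.5, 49.98, 70.6 and 55.4 CPM in NR tumours, a difference of -0.64 (SE 0.16). Plekha6 differed by -0.83 (SE 0.21). Rnase2a, one of the mouse eosinophil-associated ribonucleases with close paralogs between which reads may be split, lay at 0, 1.09 and 5.76 CPM in R tumours, against 0.522, 4.26, 76.3 and 0.206 CPM in NR tumours. The difference of -3.51 (SE 0.77) rested on NR replicate 3, without which it was 0.16.

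Cholesterol synthesis genes were negative in 18 of 18 members (46.1% of all genes were negative), with a median of -0.39 and 5 at an unadjusted p under 0.05. Insig1 (chromosome 5, 28071363 to 28078662), which holds the sterol sensor in the endoplasmic reticulum and is itself induced when sterols are short, lay at 3.16, 8.84 and 23.9 CPM in R tumours, against 22.1, 55.7, 33.2 and 12.99 CPM in NR tumours. NR replicates 2 and 3 were above all R tumours, and NR replicates 1 and 4 were within the R range. The difference was -1.35 (SE 0.34). Cyp51, a demethylase of sterol synthesis, differed by -0.68 (SE 0.25) and Mvd of the mevalonate pathway by -0.63 (SE 0.26). Mmab, an enzyme of vitamin B12 metabolism, differed by -0.58 (SE 0.15). The list mean was below every NR tumour in 9 of 12 R tumours. The difference in list means was -0.47 with all tumours and -0.32 without the libraries with other tissue.

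Proliferation genes were negative in 21 of 22 members (median -0.37), 5 at an unadjusted p under 0.05, among them Birc5, a mitotic survival protein, at -0.58 (SE 0.22) and the transcription factor Foxm1 at -0.41 (SE 0.17). Mki67 was at 154 ± 45.5 CPM in R tumours and 185 ± 36.4 CPM in NR tumours, a difference of -0.26 (SE 0.21), and of -0.13 without NR replicate 3. Without the libraries with other tissue the difference was -0.38 for Birc5 and -0.08 for Mki67. R replicate 10 had the lowest mean of this list (4.88 log2 CPM, with NR tumours from 6.68 to 6.93). The difference in list means was -0.44 with all tumours, -0.30 without R replicate 10 and -0.22 without the libraries with other tissue. DNA replication genes were negative in 20 of 23 members (median -0.14), with a difference in list means of -0.23 that was -0.15 without R replicate 10. Of these the thymidine kinase Tk1 was lower in every R tumour than in every NR tumour, as were 0.119% of all tested genes. Of 13 mitochondrially encoded genes 7 were tested and 6 were negative (median -0.39), with mt-Nd4, a subunit of respiratory complex I, at 6248 ± 1801 CPM in R tumours and 12331 ± 3978 CPM in NR tumours, a difference of -0.98 (SE 0.29). The difference in list means of the mitochondrially encoded genes was -0.45 with all tumours and -0.28 without the libraries with other tissue. The nuclear respiratory chain list had a median of 0.05.

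**Figure D4:**
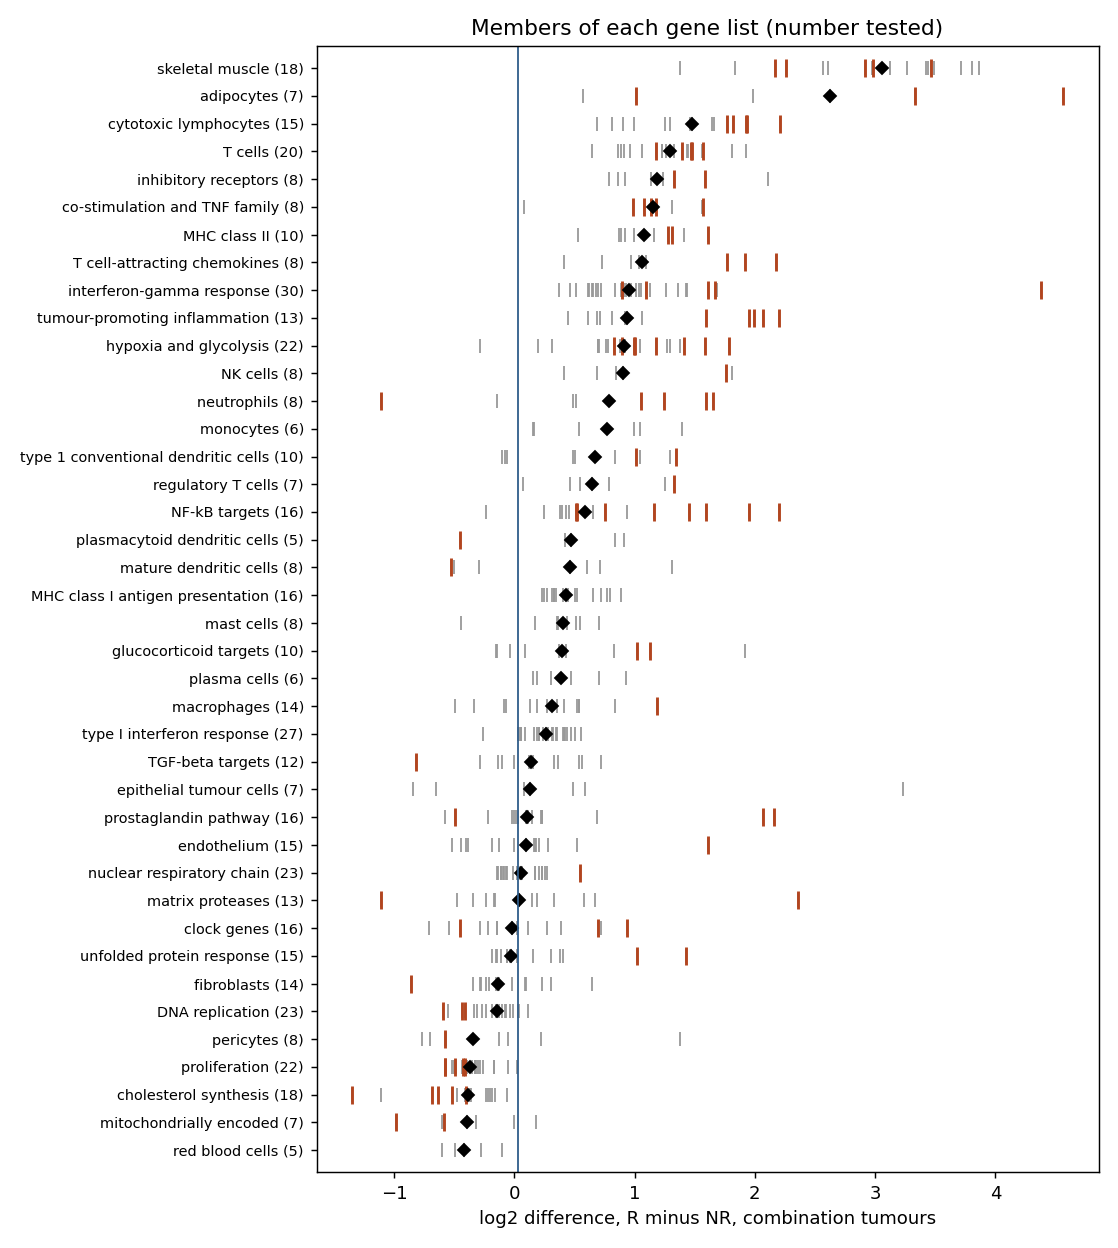
Log2 difference (R minus NR) of the tested members of 40 gene lists in combination tumours, with the number tested in brackets. Each tick is a gene, red where its unadjusted p was under 0.05, diamonds are list medians and the vertical line is the median of all 14247 genes (0.03). Medians run from 3.05 for skeletal muscle to -0.42 for red blood cells.

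Complete separation of the labels was rare. Every R tumour exceeded every NR tumour for 10 genes (0.0702% of those tested) and every R tumour lay below every NR tumour for 17 (0.119%). The labels can be placed on these tumours in 1820 ways, of which only a single way fully separates a gene in a given direction. Chance alone therefore separates some of 14247 genes, and whether these counts exceed that number was not tested. The genes are named as a description. Besides Sdcbp2 the 10 included Gadd45b, a stress-induced regulator of MAP kinase signalling, at 30.7 ± 13.01 CPM in R tumours and 16.4 ± 1.84 CPM in NR tumours, and the transcriptional cofactor Lmo4, at 311 ± 68.3 CPM in R tumours and 204 ± 16.5 CPM in NR tumours. The others were Stxbp3, Hivep1, Slc1a3, Atp6v1a, Tex14, Hoxb3os and Hist1h4c. The smallest p of all, on the lower side, belonged to the transcript 1700031A10Rik, a predicted gene outside the rule for named genes and named because of that rank, at 4.75 ± 1.18 CPM in R tumours and 10.8 ± 2.18 CPM in NR tumours (-1.19, SE 0.23, edgeR adjusted p = 0.0705). The other 16 were Spag5, Cenpl, Cenps, Tk1, Kifc5b, Amot, Sv2a, Ephb2, Unc5b, Ctnnbip1, Pik3r2, Arhgef40, Rhebl1, Slc9a3r2, Neurl1a and 4930524J08Rik.

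The genes of smallest p were also read across all 6 groups. Nos2 averaged 13.4 ± 25.8 CPM in combination R and 0.634 ± 0.301 CPM in combination NR tumours, beside 5.79 ± 2.17 and 2.00 ± 1.57 CPM in anti-PD-1 R and NR, 2.91 ± 2.19 CPM with celecoxib and 3.12 ± 2.93 CPM with vehicle. Rapgef3 averaged 22.2 ± 5.65 CPM in combination R and 40.6 ± 10.6 CPM in combination NR tumours, beside 22.5 ± 7.01 and 30.9 ± 4.19 CPM in anti-PD-1 R and NR, 27.9 ± 3.45 CPM with celecoxib and 27.7 ± 8.07 CPM with vehicle. Insig1 averaged 12.2 ± 6.67 CPM in combination R and 31.001 ± 18.4 CPM in combination NR tumours, with means of 13.2 to 15.6 CPM in the other 4 groups. All are SD, with n = 12, 4, 4, 13, 7 and 9 in that order. The NR combination mean was the lowest or highest of the 6 groups for each of the 12 genes of smallest p, for 86.4% of the 1298 genes at an unadjusted p under 0.05 and for 51.4% of all tested genes. The R combination mean was so for 9 of the 12, for 52.1% of the 1298 and for 36.3% of all tested genes. Over all tested genes the share was 45.4% for anti-PD-1 R, 19.9% for anti-PD-1 NR, 27.8% for vehicle and 19.2% for celecoxib. The largest shares were thus those of the groups with only 4 tumours. The ranking by a contrast of combination R and NR bears on the counts among the 12 and the 1298. All these counts were made after the values were seen. No contrast of combination NR with the other treatments was tested.

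With anti-PD-1 alone, a comparison of 4 R with 13 NR tumours that shares no library with the combination, edgeR likewise left 0 of 14247 genes past the limit (0%), while 923 had an unadjusted p under 0.05 (6.48%), and DESeq2 and limma-voom called 0. Across all genes the R minus NR differences of both treatments had a Pearson r of 0.33, a description over genes of the same fit, which are not independent. Several groups had the same sign in both. Hypoxia and glycolysis genes had a median of 0.91 under the combination and 1.13 under anti-PD-1 alone, interferon-gamma response genes 0.95 and 0.66, and proliferation genes -0.37 and -0.28. Under anti-PD-1 alone the hypoxia median was 0.59 without R replicate 2, the interferon-gamma median 0.23 without R replicate 4 and 1.03 without R replicate 2, and the proliferation median -0.16 without R replicate 1. Nos2 differed by 4.38 (SE 1.07) under the combination and by 1.51 (SE 0.73) under anti-PD-1 alone, Ptgs2 by 2.06 (SE 0.74) under the combination and by 1.44 (SE 0.59) under anti-PD-1 alone, and Mmp9 by -1.11 in both (SE 0.31 and 0.34).

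The lymphocyte lists had no stable direction under anti-PD-1 alone. Of 20 T cell genes 20 were positive under the combination and 6 under anti-PD-1 alone, where 50.7% of all genes were positive. Their medians were 1.30 and -0.20, those of MHC class II genes 1.08 and -0.10, and those of cytotoxic genes 1.48 and 0.09. Leaving out single anti-PD-1 tumours, a check chosen after the values were seen, turned these directions. Without R replicate 2 the anti-PD-1 medians were 0.18 for T cells (16 of 20 positive), 0.19 for MHC class II and 0.64 for cytotoxic genes. The T cell median was also positive without R replicate 1 (0.05) or NR replicate 2 (0.14), as was that of MHC class II without NR replicate 2 (0.18). Without R replicate 4 they were -0.77 for T cells, -0.48 for MHC class II and -0.73 for cytotoxic genes. Cd8a differed by 1.81 (SE 1.15) under the combination and by -0.66 (SE 1.08) under anti-PD-1 alone, where it was 0.08 without NR replicate 2. Tested as an interaction, the difference between treatments passed the limit for 0 of 14247 genes in edgeR (0%), and 329 genes (2.31%) had an unadjusted p under 0.05. By DESeq2 there were 2, the muscle genes Art1 and Ckmt2, at fitted values of 21.1 and 20.7 that give no fold, and limma-voom 0. The smallest interaction p on the higher side belonged to Haghl at 0.99 (SE 0.30), Sdcbp2 at 1.53 (SE 0.48), Fmo5 at 1.32 (SE 0.42), Galnt6 at 1.72 (SE 0.56), Abhd18 at 1.72 (SE 0.58) and the T cell activation-induced nuclear receptor Nr4a3 at 1.51 (SE 0.51). On the lower side they were the deacetylase Hdac9 at -1.45 (SE 0.45), Zfp574, U2af1, BC052040, Tnfrsf22 and the mitochondrial citrate carrier Slc25a1 at -0.71 (SE 0.23).

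**Figure D5:**
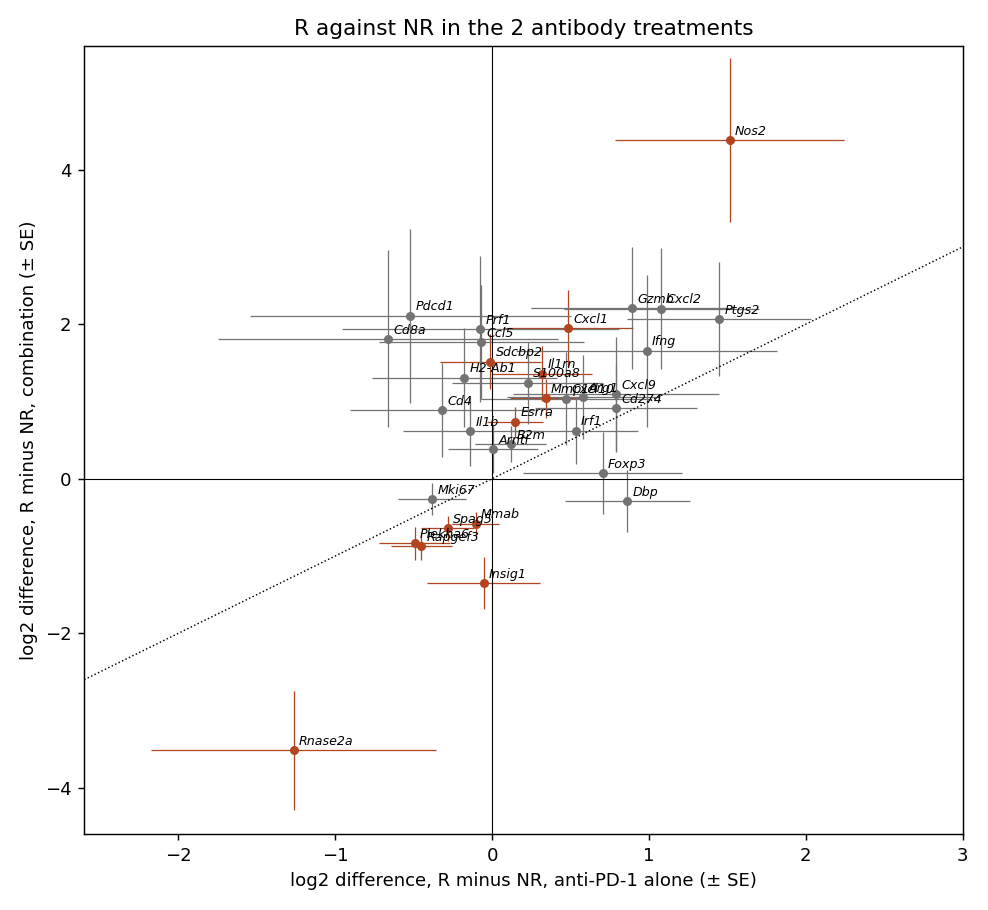
Log2 difference (R minus NR) under the combination (y axis) against that under anti-PD-1 alone (x axis) for the genes of smallest p (red) and genes of a fixed panel (grey), with SE bars. The dotted line marks equal values. Nos2 is highest on both axes and, with all tumours, Cd8a and Pdcd1 are positive under the combination and negative under anti-PD-1 alone.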

How the data were processed

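Raw gene counts were deposited by the authors as 1 table of 39179 genes, made from 3′ end libraries (QuantSeq), per the labels' protocols. The submitters' processing notes name bcl2fastq, STAR, featureCounts and limma and the builds mm10 and GRCm38, with neither their roles nor versions. Depth ran from 4251251 to 13671294 counts over the 49 libraries, and the most alike pair still differed by more than sampling noise (chi-square of 16.4 per gene).

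All 49 libraries in 6 groups were fitted together with edgeR 4.0.16 (filterByExpr, TMM, robust quasi-likelihood, R 4.3.3), leaving 14247 genes. P-values were adjusted by Benjamini-Hochberg over all of them with a limit of 0.05. CPM are counts per 1000000 of the TMM-scaled total of tested genes, and list means are averages of log2 CPM computed here from the deposited counts with a prior count of 2. Coordinates are GRCm38, and 37693 genes matched the annotation by gene identifier. Alternatives used DESeq2 1.42.0, limma 3.58.1, other scaling and filters, covariates for muscle, T cell and clock genes, and omission of single libraries or of all libraries with other tissue (a list mean over 3 log2 CPM for muscle, or over 5 for skin or adipocytes).

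Named genes were those past the limit or, there being none, the 6 of smallest p in each direction with a mean of at least 2 CPM over the 16 combination tumours, apart from antigen receptor segments and predicted genes. The same rule served for the interaction, beside a fixed panel of 25 genes and the 3 members of smallest p in lists whose median lay over 0.3 (log2) from that of all genes. Most of the panel are immune genes, and it also holds the clock genes Dbp and Arntl and the proliferation gene Mki67. Members, lists and tests were chosen with earlier results of these data known. Gene lists overlap, and the genes in more than 1 include Cxcl1, Cxcl2, Tnf, Ptgs2, Ccl5, Cxcl9, Cxcl10, Ciita, Cd28, Icos and Ctla4. A few members are not reported here. Genes named beside these are pathway members or were chosen after their values were seen.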

Additional observations from a re-analysis of the deposited data

Results flagged for a closer look

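Among 158 results examined for a tumour standing apart within the 4 NR combination tumours, 8 did so. Chance gives about 1 in 20 groups, so this count is near the share that chance gives. The results are not independent, because list means share values with their members, and those flagged are given as a description. NR replicate 1 stood above the others in muscle transcripts, with a skeletal muscle list mean of 2.71 log2 CPM (next tumour -0.42) and Mylpf, a muscle myosin light chain, at 2.94 log2 CPM (next 0.67). NR replicate 3 stood above the others in plasma cell genes, with a list mean of 2.76 log2 CPM (next 2.23) and the antibody joining chain Jchain at 0.91 log2 CPM (next -0.97). NR replicate 4 stood above the others in the fat cell genes Adipoq, at -0.84 log2 CPM (others -2.00), and Cfd, at 2.41 log2 CPM (next 0.05). The Adipoq value is near the floor, at 0.309 CPM, and -2.00 log2 CPM stands for 0 counts. NR replicate 4 also had the highest cholesterol synthesis mean, 5.36 log2 CPM (next 5.02), and the lowest endothelial mean, 3.32 log2 CPM (next 3.57).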

How the results depend on the processing

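No paired analysis was possible because the replicate numbers only name tumours in the order of the labels. Under the combination 0 genes passed the limit in edgeR with RLE scaling, with no low-count filter, on the compared groups only, with a muscle or clock covariate and without libraries with other tissue, and 0 in limma-voom. DESeq2 called 17, edgeR with the T cell mean as a covariate called 1 (Rapgef3, -0.96), and leaving out 1 library gave 0 to 2 calls. These were Rapgef3 and 1700031A10Rik without R replicate 6, 1700031A10Rik without R replicate 7, and Rnase2a and 1700031A10Rik without NR replicate 4. Under anti-PD-1 alone the T cell covariate gave 1 call (AA467197), and for the interaction DESeq2 gave 2. The difference in total counts, -561249, ran from -961930 to 151684 when 1 library was left out, its sign turning without NR replicate 4. Of 2875 values of 115 named genes in the alternatives, 2844 kept direction and side of the limit, and 14 genes changed sign in some setting. With the T cell covariate these were Ccr9 at -0.059, Cd4 at -0.12, Cd8a at -0.071, Clec9a at -0.057, Dbp at 0.081, Foxp3 at -0.80, H2-Q7 at -0.11, Icos at -0.044, Klrk1 at -0.34 and Tpsab1 at -0.76. The clock covariate gave Dbp at 0.36 and the muscle covariate Des at -0.21. Without libraries with other tissue Des was at -0.39 and Myoz1 at -0.045, and limma-voom gave Foxp3 at -0.32 and Tpsab1 at -0.0037. Leaving out 1 library moved Rnase2a between -3.93 and 0.16, Hba-a1 between -0.91 and 0.035, Foxp3 between -0.20 and 0.24 and Dbp between -0.55 and 0.28. The medians of T cell, cytotoxic and MHC class II genes under anti-PD-1 alone ran from -0.77 to 0.18, from -0.73 to 0.64 and from -0.48 to 0.19 without 1 of its libraries. Without libraries with other tissue those of T cell and MHC class II genes were 0.13 and 0.11. The cause was not tested. All 817 alternative values of the list means lay within 1 SD of the reported ones. Where a setting left out 1 tumour of a group, this was fixed in advance, since that cannot move a mean by 1 SD. The list differences moved more, 23 of 43 by over 1.5 times without 1 library. With 4 NR tumours the median SE over genes was 0.25. In the main fit 0 genes passed the adjusted limit, so log2 differences well above that SE were not resolved either.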

Other observations

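Stress and clock genes were also read in R and NR combination tumours. Atf3, a stress-induced transcription factor, differed by 1.43 (SE 0.52) and Ddit3, which promotes death under stress of the endoplasmic reticulum, by 1.02 (SE 0.46), while the 15 unfolded protein response genes had a median of -0.03. The clock repressor Nfil3 differed by 0.94 (SE 0.33) and the core clock gene Cry1 by 0.69 (SE 0.29), and Nr1d2 by -0.45 (SE 0.18), with a median of -0.02 over 16 clock genes. That median does not describe the state of the clock, since 7 of the genes were positive and 9 negative. The clock measure given above was 1.96, 5.03, 4.65 and 3.11 in NR replicates 1 to 4. In R tumours it ran from 1.51 (replicate 2) to 4.29 (replicate 4). Mmp8, a collagenase of neutrophils, differed by 2.36 (SE 0.83), in the opposite direction to Mmp9. In stromal lists the collagen-binding proteoglycan gene Lum differed by -0.86 (SE 0.33) and the pericyte receptor Pdgfrb by -0.58 (SE 0.28). Vwf, the endothelial clotting factor, differed by 1.61 (SE 0.70), against an endothelial median of 0.10. Without the libraries with other tissue Atf3 was at 0.81, Ddit3 at 0.35, Cry1 at 0.38 and Vwf at 0.97. Ddit3 was at 0.62 without R replicate 11 and Lum at -0.49 without NR replicate 3. None of these passed the adjusted limit in edgeR.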
